A study of Mus musculus with 7 samples.

Results

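The proteasome subunit and activator genes were examined in islets of mice aged 7 days. The members were all mouse genes in the count files whose symbol is Psma, Psmb, Psmc, Psmd, Psme, Psmf or Psmg followed by a number, with pseudogenes left out. This gave 49 of 49315 genes, and all 49 are protein-coding. Of these, 47 passed the filter on low counts and were tested. They were sorted by role into 14 genes of the constitutive core, 17 of the regulatory cap, 6 of the immunoproteasome and its activator, 7 assembly chaperones, 3 alternative activators and inhibitors, and 2 core genes known from testis and thymus.

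Islet RNA was depleted of ribosomal RNA and sequenced in 7 libraries, each a pool of RNA from 5 animals. The 3 control pools (numbers 1, 2 and 4) came from Nrf2lox/lox mice, in which loxP sites flank part of the Nrf2 gene. The 4 βNrf2KO pools (numbers 1, 2, 3 and 4) came from mice with a deletion of Nrf2 in β-cells. Which promoter drives the Cre recombinase was not stated in the labels used here, and cells other than β-cells keep Nrf2 by this design. The spread is therefore that between pools, not between animals, and the labels do not say whether pools came from separate litters or days. Values per pool are always in the order of these numbers, controls first. In bulk islets, fewer cells of a type and less RNA per cell cannot be told apart.

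The proteasome is the protease that degrades ubiquitin-tagged proteins. Its core is a barrel of stacked α and β rings, and the catalytic sites lie on 3 kinds of β subunit inside it. The cap, made of a base with a ring of ATPases and of a lid, binds ubiquitin chains, removes them and unfolds the substrate. Interferon exchanges the catalytic subunits for inducible ones, which gives the immunoproteasome, and Nrf2 and its relative Nfe2l1 (also called Nrf1) are known activators of proteasome genes through antioxidant response elements (AREs) in their promoters. Insulin-secreting cells make large amounts of protein and rely on the proteasome to remove misfolded proinsulin.

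Libraries held 18187382 to 25373105 counts, of which the mitochondrial genome took 10.02% to 51.8%. Cre was read at 0 counts in every control pool and at 23 to 73 counts in the βNrf2KO pools. Nfe2l2, the gene of Nrf2, had 6.43, 5.44 and 5.60 log2 CPM in controls and 6.06, 5.85, 6.07 and 5.88 in βNrf2KO. These groups overlapped, with a log2 fold change of 0.08 ± 0.23 (standard error, SE; edgeR adjusted p = 0.911). Its sign depended on single controls (-0.10 without pool 2 and -0.05 without pool 4), and counts over the whole gene do not check a deletion in 1 cell type. The insulin genes Ins1 and Ins2 lay between 12.4 and 15.0 log2 CPM in the 7 pools. Control pool 2 had the lowest summed level of the β-cell list (14870 CPM, against 23851 to 42467 in the other 6 pools) and the highest of the mesenchymal list (2502 CPM, against 908 to 2027). These sums weigh abundant genes most, and the markers did not all follow them. Ins2, Pdx1 and Ucn3 were lowest in control pool 2, but Ins1, Mafa, Slc2a2 and Nkx6-1 were lowest in other pools. Rgs5, Pdgfrb, Acta2 and Myh11 were highest in control pool 2, but Col1a1, Col3a1 and Pdgfra in control pool 1.

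Promoter windows in RefSeq (GRCm38.p6, 250 bases before to 50 after the start of a transcript) were found for 41 members, as 44 windows. The ARE core TGACNNNGC, searched on both strands, was in 6 of the 44 windows (13.6%), against 12.4% of all 32851 windows of this length. The sites are shown because the deleted factor is known to bind this element. They are written along the gene's strand, 5′ to 3′, with the match in capitals and the flanks in lower case.

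Psmb5: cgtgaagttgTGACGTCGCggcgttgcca
Psmb6: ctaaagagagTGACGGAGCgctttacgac
Psmc6: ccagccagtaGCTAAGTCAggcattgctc
Psmd12: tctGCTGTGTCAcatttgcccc
Psmd9: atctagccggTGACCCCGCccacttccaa
Psme4: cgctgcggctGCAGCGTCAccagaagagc

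The match begins 47 bases before the start in Psmb5 (chr14:54618024-54618052, minus strand), 9 bases before it in Psmb6 (chr11:70525338-70525366) and 31 bases before it in Psmd9 (chr5:123228149-123228177). In Psmc6 (chr14:45329587-45329615), Psmd12 (chr11:107479278-107479299) and Psme4 (chr11:30771758-30771786) the element lies on the opposite strand, so that the capitals show its complement. The 6 genes with a match had a median log2 fold change of 0.09 (range -0.04 to 0.48, 5 of 6 above 0). The 34 tested genes with a window that lacks it had a median of 0.15 (range -0.67 to 0.65, 26 of 34 above 0). The match is a description of letters and shows no binding.

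Relative to control islets, 36 of the 47 tested proteasome genes had a log2 fold change above 0 and 11 below it, where 49.4% of all 19893 tested genes lay above 0. The differences were small, with a median of 0.16 on the log2 scale against -0.01 for all tested genes. In the quasi-likelihood test of edgeR, with Benjamini-Hochberg adjustment over all genes, 0 of the 47 passed an adjusted p of 0.05 (smallest adjusted p = 0.571), and 0% of all tested genes did. DESeq2 and limma-voom also called 0 members. At unadjusted p under 0.05 there were 2 members, Psma1 and Psmd12, both higher, where 8.46% of all tested genes passed (3.23% higher and 5.23% lower). DESeq2 also gave 2 and limma-voom 1, where 6.12% and 6.22% of all tested genes passed.

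The size of this shift rested on control pool 2. Without it 30 of 47 genes lay above 0, against 48.6% of all tested genes, and the median was 0.07. Without control pool 4 the median was 0.26. The 2 members at unadjusted p under 0.05 became 0 without control pool 2 or βNrf2KO pool 3. In these settings 2.30% and 3.96% of all tested genes passed in either direction. There was 1 member without control pool 1 or βNrf2KO pool 1, 2 or 4 (a lower one without βNrf2KO pool 1). The shares of all tested genes there were 14.1%, 9.04%, 8.21% and 4.22%. Without control pool 4 there were 8, all higher, or 17.0% of the members. Of the 20326 genes tested then, 17.0% passed in either direction (1552 higher and 1894 lower). With the pool number as a block there was 1 member at unadjusted p under 0.05, against 12.1% of all tested genes. Over all genes 14 passed the adjusted threshold with the block, none of them a proteasome gene. Control pool 2 was the lowest of the 7 pools for 32 of the 47 members (68.1%), against 28.5% of all tested genes. The low values in control pool 2 coincide with its mitochondrial share of 51.8% and the marker levels given above, and the part of these in the result was not tested. All 7 mesenchymal, all 5 tested acinar and all 5 neural markers had log2 fold changes below 0 (medians -0.81, -0.96 and -0.45), and 0 passed the adjusted threshold. At the other end, βNrf2KO pool 3 was the highest pool for 22 members (46.8%), against 14.3% of all tested genes.

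**Figure D1:**
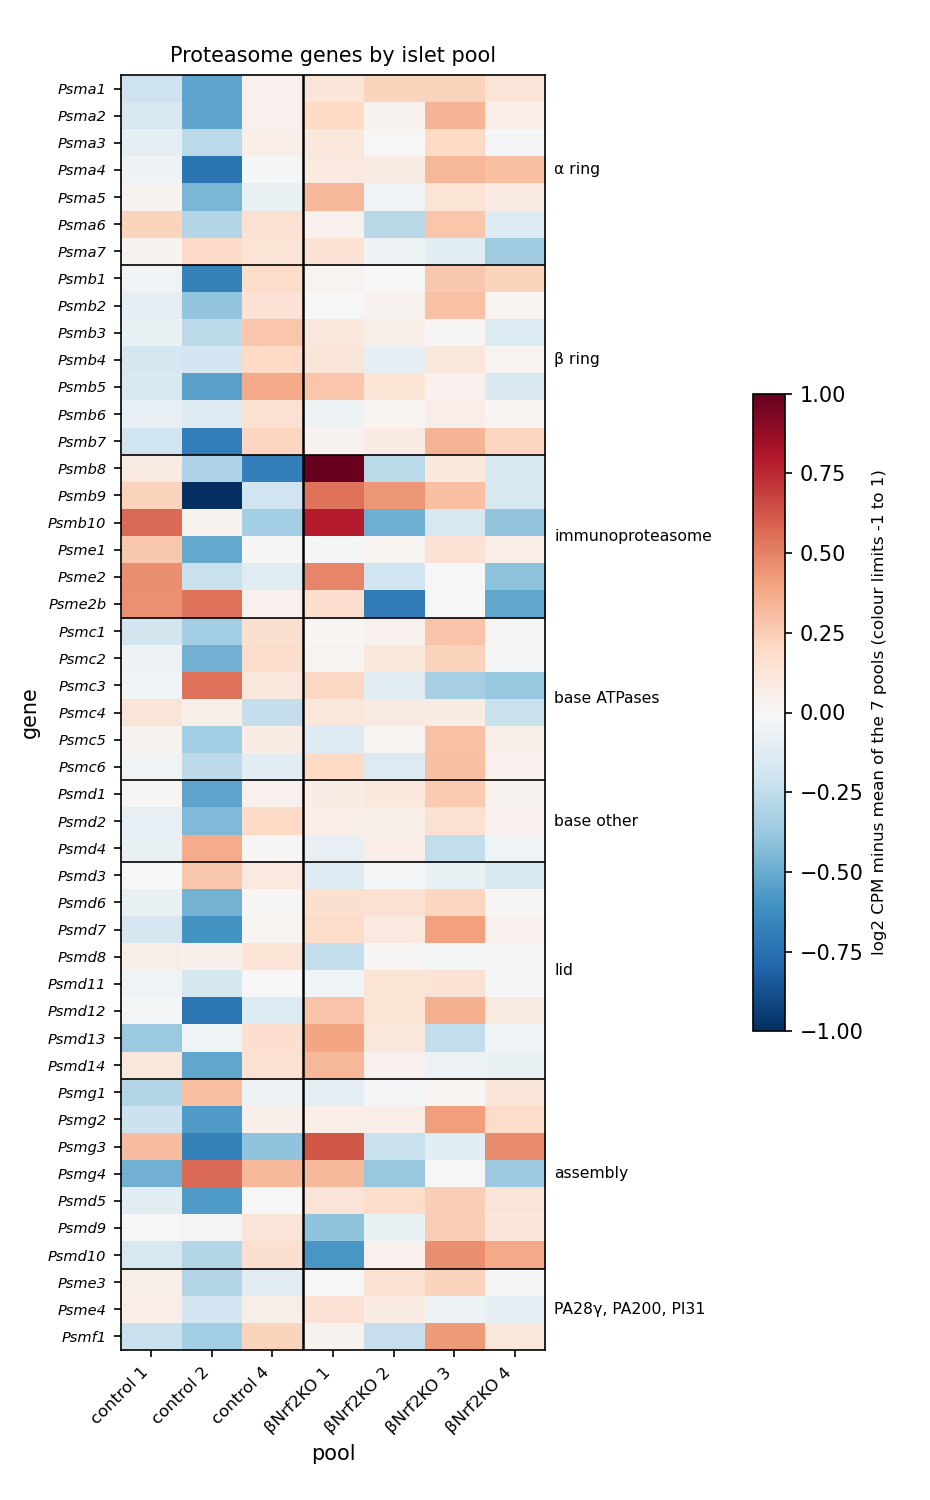
Heat map of the 47 tested proteasome genes (rows, by role) in the 7 islet pools (columns), with colour for log2 CPM minus the gene's mean over the 7 pools, and colour limits of -1 to 1. Control pool 2 is the lowest pool for 32 genes, and Psmb8 and Psmb10 are highest in βNrf2KO pool 1.

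The α ring forms the outer rings of the core and its gate. Of 7 genes, 5 were higher and 2 lower in βNrf2KO islets, with a median log2 fold change of 0.28 (0.15 without control pool 2). Psma1 had 4.53, 4.21 and 4.78 log2 CPM in controls and 4.86, 4.96, 4.96 and 4.86 in βNrf2KO. All 4 βNrf2KO pools lay above the 3 controls, with a log2 fold change of 0.39 ± 0.17 (edgeR adjusted p = 0.571). Psma4 was read at 2.83, 2.15 and 2.86 log2 CPM in the controls and at 2.98, 2.96, 3.21 and 3.18 in βNrf2KO, again without overlap (0.44 ± 0.24, edgeR adjusted p = 0.584). Psma2, at 4.63, 4.27 and 4.84 against 5.00, 4.83, 5.13 and 4.86 log2 CPM, overlapped by a narrow margin, since control pool 4 lay above βNrf2KO pool 2 (0.36 ± 0.18, edgeR adjusted p = 0.571). The remaining α genes ran from -0.20 for Psma7 to 0.28 for Psma5 on the log2 fold change scale. Psma3 (0.17 ± 0.15) and Psma6 (-0.05 ± 0.22) lay between them. Without control pool 2 the differences were 0.25 for Psma1, 0.24 for Psma4, 0.22 for Psma2, 0.15 for Psma5 and 0.09 for Psma3, and Psma7 was at -0.12 without βNrf2KO pool 4. Psma7 was the only α gene read higher in control pool 2 (4.81 log2 CPM) than in both other controls.

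The constitutive β ring carries the catalytic sites. All 7 genes had log2 fold changes above 0, with a median of 0.13, but the median was 0.01 without control pool 2 and 0.32 without control pool 4. Psmb7, the trypsin-like subunit, had 4.78, 4.29 and 5.20 log2 CPM in controls and 5.02, 5.07, 5.32 and 5.20 in βNrf2KO (0.35 ± 0.21, edgeR adjusted p = 0.599). The groups overlapped through control pool 4, and the difference was 0.15 without control pool 2 and 0.60 without control pool 4. Psmb5, the chymotrypsin-like subunit, was read at 1.87, 1.48 and 2.41 log2 CPM in controls and at 2.31, 2.17, 2.07 and 1.88 in βNrf2KO (0.13 ± 0.29, edgeR adjusted p = 0.879). Its highest and lowest pools were both controls, and its sign turned without control pool 2 (-0.06). Psmb6, the caspase-like subunit, varied least, at 4.23, 4.18 and 4.46 against 4.26, 4.34, 4.38 and 4.33 log2 CPM (0.03 ± 0.16, edgeR adjusted p = 0.956). Psmb1, a structural β subunit, was read at 4.34, 3.69 and 4.55 against 4.40, 4.38, 4.64 and 4.59 log2 CPM (0.27 ± 0.21, edgeR adjusted p = 0.669). Control pool 2 was the lowest pool for Psmb1, and the difference was 0.05 without it and 0.45 without control pool 4. The structural subunits Psmb2 (0.19 ± 0.17), Psmb3 (0.01 ± 0.18) and Psmb4 (0.09 ± 0.17) also overlapped between genotypes in log2 CPM, and Psmb2 was at 0.05 and Psmb4 at 0.01 without control pool 2.

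The promoter of Psmb5 is printed whole as that of a catalytic subunit with an ARE core (chr14:54617946-54618245, minus strand, GRCm38.p6), with the match in capitals.

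Psmb5 promoter: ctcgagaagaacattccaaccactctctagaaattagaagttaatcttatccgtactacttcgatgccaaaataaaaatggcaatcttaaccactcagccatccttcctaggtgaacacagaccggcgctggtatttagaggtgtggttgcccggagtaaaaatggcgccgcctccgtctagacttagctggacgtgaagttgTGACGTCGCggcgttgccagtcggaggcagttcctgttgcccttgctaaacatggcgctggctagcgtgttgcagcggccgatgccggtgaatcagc

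The base of the cap holds 6 ATPases (Psmc1 to Psmc6), which unfold substrates and thread them into the core. Of the 6 genes 5 were above 0 and 1 below, with a median log2 fold change of 0.16 (0.04 without control pool 2). Psmc6 had 4.83, 4.60 and 4.75 log2 CPM in controls and 5.07, 4.73, 5.17 and 4.91 in βNrf2KO (0.25 ± 0.17, edgeR adjusted p = 0.631). Psmc3 was the ATPase gene with the opposite sign, at 3.62, 4.19 and 3.75 in controls and 3.85, 3.53, 3.32 and 3.27 in βNrf2KO (-0.37 ± 0.22, edgeR adjusted p = 0.601). Control pool 2 was the highest pool for Psmc3, unlike the other 5 ATPases, and the difference was -0.18 without it. The log2 fold changes of the remaining ATPases were 0.20 ± 0.17 for Psmc1, 0.18 ± 0.18 for Psmc2, 0.03 ± 0.17 for Psmc4 and 0.14 ± 0.18 for Psmc5, with overlap in each. Without control pool 2 they were 0.09 for Psmc1, 0.02 for Psmc2 and 0.01 for Psmc5. Reads of Psmc3 cannot be told from those of Slc39a13 on the opposite strand over 215 shared exonic bases, since the labels used here do not state whether counting used strand. The same holds for Psmb7 with Nek6 (405 bases), Psmd13 with Sirt3 (342 bases) and Psmd9 with Gm26745 (1849 bases). In GENCODE M21, 14 members share exonic bases with another gene on either strand.

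The other base subunits are the scaffolds Psmd1 and Psmd2 and the ubiquitin receptor Psmd4. Psmd1 was read at 6.0, 5.47 and 6.04 log2 CPM in controls and at 6.06, 6.09, 6.26 and 6.03 in βNrf2KO (0.25 ± 0.17, edgeR adjusted p = 0.632). Psmd4 was read at 3.98, 4.42 and 4.06 against 3.97, 4.12, 3.80 and 4.01 log2 CPM (-0.19 ± 0.18, edgeR adjusted p = 0.726). Both overlapped between genotypes, and control pool 2 was the lowest pool for Psmd1 and the highest for Psmd4. Psmd2 differed by 0.16 ± 0.17 on the log2 scale, also with overlap. Without control pool 2 the differences were 0.09 for Psmd1, -0.04 for Psmd4 and 0.0090 for Psmd2.

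The lid removes ubiquitin chains before degradation. It held most of the members whose pools did not overlap between genotypes. Among its 8 genes 3 were higher in every βNrf2KO pool than in every control and 2 were lower. Over all 47 members such separation was seen for 7 higher and 2 lower genes, where 6.99% of all tested genes were separated (3.19% upwards and 3.8% downwards). Psmd12, the member with the smallest p, had 4.97, 4.26 and 4.84 log2 CPM in controls and 5.27, 5.12, 5.34 and 5.07 in βNrf2KO. Its log2 fold change was 0.48 ± 0.19 (edgeR adjusted p = 0.571), and 0.29 without control pool 2.

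Psmd7, the partner of the deubiquitinase Psmd14, was read at 4.41, 3.97 and 4.60 log2 CPM in controls and at 4.75, 4.67, 4.98 and 4.61 in βNrf2KO (0.41 ± 0.19, edgeR adjusted p = 0.571). Psmd6 was read at 5.40, 5.00 and 5.49 against 5.63, 5.63, 5.69 and 5.49 log2 CPM (0.30 ± 0.17, edgeR adjusted p = 0.586). In both genes control pool 4 lay just below βNrf2KO pool 4, so the separation is slight. Psmd3 and Psmd8, also structural lid subunits, were separated in the other direction. Psmd3 was read at 5.37, 5.65 and 5.48 in controls against 5.25, 5.37, 5.31 and 5.22 in βNrf2KO (-0.22 ± 0.15, edgeR adjusted p = 0.634). Its separation is slight too, since control pool 1 (5.373) lay just above βNrf2KO pool 2 (5.368). Psmd8 was read at 5.29, 5.28 and 5.37 against 5.00, 5.25, 5.22 and 5.23 log2 CPM (-0.14 ± 0.15, edgeR adjusted p = 0.754). Psmd14 itself differed by 0.12 ± 0.22 and turned without control pool 2 (-0.06). The lid genes Psmd11 (0.13 ± 0.14) and Psmd13 (0.14 ± 0.22) overlapped between genotypes. Without control pool 2 the differences were 0.25 for Psmd7, 0.16 for Psmd6, -0.14 for Psmd3 and 0.07 for Psmd11, and Psmd13 was at -0.0012 without βNrf2KO pool 1.

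Psmd12 promoter: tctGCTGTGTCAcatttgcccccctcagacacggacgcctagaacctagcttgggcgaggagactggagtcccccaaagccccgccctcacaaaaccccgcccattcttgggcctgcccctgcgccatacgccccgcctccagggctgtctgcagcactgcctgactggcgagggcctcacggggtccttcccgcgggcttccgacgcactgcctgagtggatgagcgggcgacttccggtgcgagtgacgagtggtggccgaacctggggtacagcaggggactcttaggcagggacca

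The promoter of Psmd12 (chr11:107479278-107479577, plus strand, GRCm38.p6) is printed as that of the member with the smallest p. Its ARE core, in capitals, begins 247 bases before the start.

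**Figure D2:**
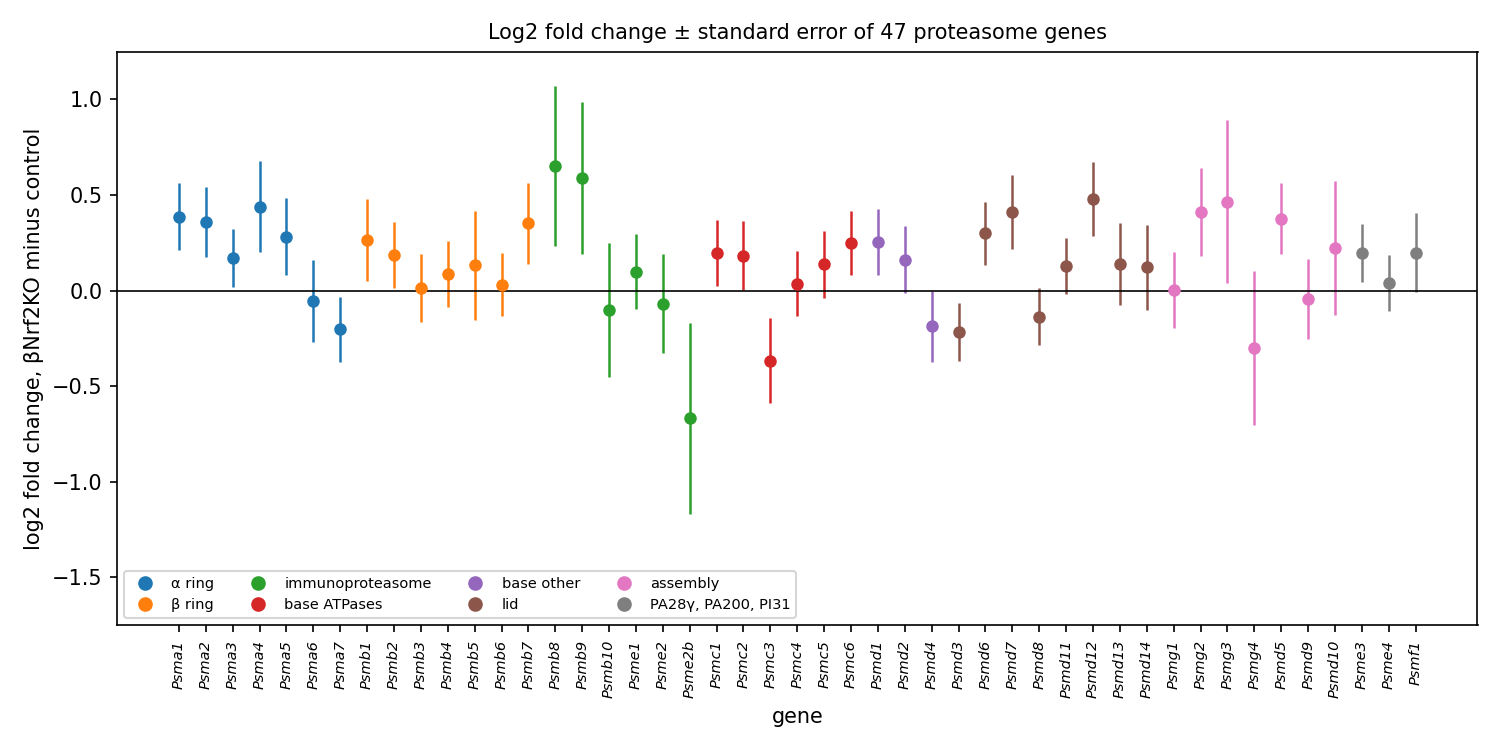
Log2 fold change (βNrf2KO minus control, vertical axis) of each of the 47 tested proteasome genes (horizontal axis, coloured by role), where bars are the standard error of the edgeR fit. Values run from -0.67 for Psme2b to 0.65 for Psmb8, and the bars of the low-count genes Psmb8, Psmb9, Psme2b and Psmg4 are wide.

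The immunoproteasome group did not share a direction. Of its 6 genes 3 were above 0 and 3 below, with a median log2 fold change of 0.01 (-0.12 when control pool 2 was left out and 0.23 when control pool 1 was). Psmb8 and Psmb9 were read at only 11 to 114 counts per pool. Psmb8 had 1.49, 1.09 and 0.72 log2 CPM in controls and 2.63, 1.13, 1.51 and 1.24 in βNrf2KO. βNrf2KO pool 1 stood above all other pools, and the log2 fold change of 0.65 ± 0.42 (edgeR adjusted p = 0.620) was 0.17 without it. Psmb9 was read at 1.09, -0.29 and 0.66 against 1.41, 1.31, 1.17 and 0.71 log2 CPM (0.59 ± 0.40, edgeR adjusted p = 0.629). It overlapped through control pool 1, control pool 2 was the lowest, and the difference was 0.29 without control pool 2 and 0.91 without control pool 1. Psmb9 shares 212 exonic bases with the antigen transporter gene Tap1 on the opposite strand, whose own log2 fold change was -0.18 ± 0.20. Psmb8 shares 498 exonic bases with the antisense gene Gm20496, so its low counts carry the same limit.

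Psmb10 was read at 3.10, 2.57 and 2.20 log2 CPM in controls and at 3.33, 2.06, 2.38 and 2.14 in βNrf2KO (-0.10 ± 0.35, edgeR adjusted p = 0.926). The pools numbered 1 were the highest of each genotype, and the sign turned without control pool 1 (0.18), βNrf2KO pool 2 (0.04) or βNrf2KO pool 4 (0.02). The subunits of PA28, the activator that pairs with the immunoproteasome, differed by 0.10 ± 0.20 (Psme1) and -0.07 ± 0.26 (Psme2). Psme1 turned without control pool 2 (-0.09) and Psme2 without control pool 1 (0.18) or βNrf2KO pool 4 (0.05). Psme2b, a copy of Psme2 with 6 to 16 counts per pool, differed by -0.67 ± 0.50 (edgeR adjusted p = 0.651), and Psme2 matched 94.9% of its transcript at an identity of 97% or more. Its counts are therefore uncertain.

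Each inducible subunit takes the place of 1 constitutive subunit, so ratios within a pool were compared in counts per kilobase of exon. The ratio of Psmb8 to Psmb5 was 0.243, 0.241 and 0.0953 in controls against 0.399, 0.152, 0.213 and 0.201 in βNrf2KO. Psmb9 to Psmb6 was 0.0560, 0.0205 and 0.0348 against 0.0688, 0.0605, 0.0531 and 0.0394. Psmb10 to Psmb7 was 0.623, 0.605 and 0.247 against 0.616, 0.244, 0.256 and 0.237. This last ratio fell into a higher set (control pools 1 and 2 and βNrf2KO pool 1) and a lower set of 4 pools, and the sets cut across genotype. The higher set holds the 3 pools with the largest mitochondrial shares (43.0%, 51.8% and 27.7%, against 10.02% to 22.4% in the other 4), and the part of this in the ratio was not tested. None of the 3 log2 ratios was separated between genotypes (exact two-sided permutation p = 0.571, 0.171 and 0.4, and 0.571, 0.514 and 0.571 after Benjamini-Hochberg adjustment over the 3). The smallest p of this design is 0.0571. This test takes no account of pool numbers. Within the same number, Psmb9 to Psmb6 was higher in βNrf2KO in 3 of 3 pairs (log2 differences 0.30, 1.56 and 0.18), Psmb8 to Psmb5 in 2 of 3 (0.72, -0.66 and 1.08) and Psmb10 to Psmb7 in 0 of 3 (-0.02, -1.31 and -0.06), where an exact test of 3 pairs cannot go below 0.25. The Psmb9 to Psmb6 difference of 0.67 on the log2 scale was 0.30 without control pool 2, and that of Psmb8 to Psmb5 (0.35) turned without control pool 4 (-0.10). The Psmb10 to Psmb7 difference of -0.55 was -0.99 with control pool 4 left out and -0.32 with control pool 1 left out.

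**Figure D3:**
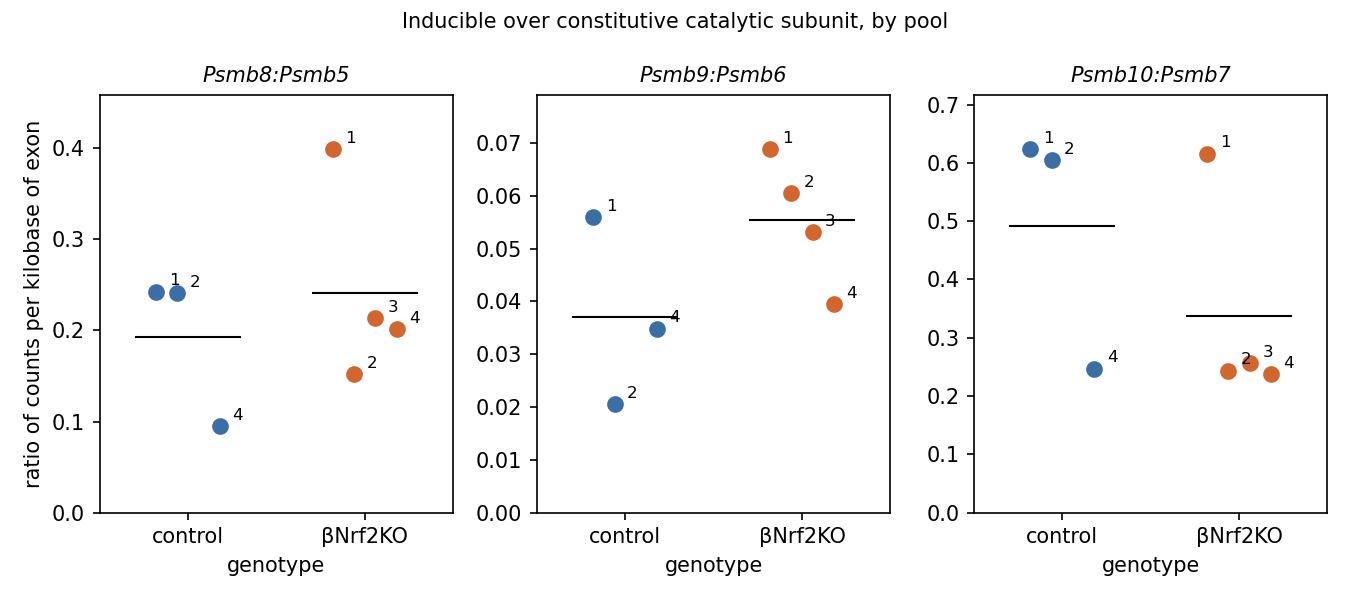
Ratio of the inducible to the constitutive catalytic subunit (counts per kilobase of exon, vertical axes from 0) in each pool, labelled by its number, with lines at the mean of each genotype. For Psmb10 to Psmb7, control pools 1 and 2 and βNrf2KO pool 1 lie between 0.605 and 0.623 and the other 4 pools between 0.237 and 0.256.

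Genes of antigen presentation and the interferon response, the setting in which the immunoproteasome is known to be induced, were mixed. Of 14 genes, 8 were above 0 and 6 below, with a median of 0.04, and 0 passed the threshold. Isg15, an interferon-induced ubiquitin-like protein, was read at -0.87, -1.49 and -0.23 log2 CPM in controls and at 1.09, 1.13, 0.90 and 0.25 in βNrf2KO, without overlap (1.75 ± 0.47, edgeR adjusted p = 0.571). Every control was under 1 CPM, so depth limits this value. Ifit1, another interferon-induced gene, was at 1.63, 0.43 and 2.27 against 2.16, 3.29, 4.16 and 3.25 (1.75 ± 0.50, edgeR adjusted p = 0.571). Its groups overlapped, since control pool 4 lay above βNrf2KO pool 1. The log2 fold change of Ifit1 was 1.36 without βNrf2KO pool 3 and 2.26 without control pool 4. Irf1, a transcription factor that activates immunoproteasome genes, differed by -0.56 ± 0.23 (edgeR adjusted p = 0.571), and by -0.33 without control pool 2. Leukocyte markers, whose cells are rich in immunoproteasome, had a summed level of 85.5 to 151 CPM in controls and 68.6 to 125 in βNrf2KO pools. All 11 were detected, and all 11 had log2 fold changes below 0 with none past the threshold. In βNrf2KO pool 1, the highest pool for Psmb8 and Psmb10, the leukocyte sum was 78.4 CPM, below all 3 controls. Control pool 1 had the highest leukocyte sum of all pools (151 CPM). It was also the highest control for Psmb8, Psmb9, Psmb10, Psme1 and Psme2, but not for Psme2b. The part of leukocytes in these values was not tested.

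Psmb8 promoter: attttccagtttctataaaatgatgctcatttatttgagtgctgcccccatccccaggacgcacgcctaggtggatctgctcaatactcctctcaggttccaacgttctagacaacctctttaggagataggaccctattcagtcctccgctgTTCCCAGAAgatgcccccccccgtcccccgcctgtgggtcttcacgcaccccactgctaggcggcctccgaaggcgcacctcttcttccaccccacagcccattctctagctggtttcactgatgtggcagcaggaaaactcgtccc

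The Psmb8 promoter (chr17:34197945-34198244, plus strand, GRCm38.p6) is printed as that of the inducible subunit with the largest difference. The capitals mark a match to TTCNNNGAA, the letters of a gamma interferon activated site, which begins 97 bases before the start. The pattern reads alike on both strands, though the free bases inside this match do not. The transcript start used lies inside the span of Psmb8 in the counts (chr17:34197721-34201454). The motif was in 3 of 44 member windows and 8.30% of all windows. The interferon-stimulated response element (GAAA, any 2 bases, GAAA) was in 5 of 44 member windows (Psmb3, Psmd4, Psmd9, Psme1 and Psmg4) and 3.44% of all windows, and a search for it in the printed Psmb8 window gave no match.

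Assembly chaperones join the core and the base and are absent from the finished particle. Of 7 genes 5 were above 0 and 2 below, with a median of 0.22 (0.09 without βNrf2KO pool 3 and 0.06 with the block). Psmd5, a chaperone of the base, had 4.18, 3.72 and 4.28 log2 CPM in controls and 4.42, 4.47, 4.53 and 4.42 in βNrf2KO. The groups did not overlap (0.38 ± 0.18, edgeR adjusted p = 0.571). Psmg2, which pairs with Psmg1 to seed the α ring, was read at 2.65, 2.29 and 2.91 against 2.93, 2.93, 3.28 and 3.04, also without overlap but by a slight margin (0.41 ± 0.23, edgeR adjusted p = 0.587). Its partner Psmg1 differed by 0.00 ± 0.20, and its highest pool was control pool 2 (3.97 log2 CPM). The second pair of core chaperones, Psmg3 and Psmg4, differed by 0.46 ± 0.43 and -0.30 ± 0.40 at 11 to 50 counts per pool. Their groups overlapped, and the depth leaves a wide error. The base chaperones Psmd9 (-0.04 ± 0.21) and Psmd10 (0.22 ± 0.35) overlapped as well. Without control pool 2 the differences were 0.22 for Psmd5, 0.26 for Psmg2, 0.27 for Psmg3, -0.09 for Psmg4 and 0.12 for Psmd10, and Psmd10 was at 0.09 without βNrf2KO pool 3.

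The alternative activators bind the ends of the core in place of the cap. Psme3, the nuclear PA28 subunit, was read at 6.44, 6.09 and 6.27 log2 CPM in controls and at 6.37, 6.53, 6.60 and 6.36 in βNrf2KO (0.20 ± 0.15, edgeR adjusted p = 0.659). Psmf1, an inhibitor of the core in vitro, was at 4.35, 4.22 and 4.79 against 4.61, 4.34, 4.99 and 4.68 (0.20 ± 0.21, edgeR adjusted p = 0.742). Both overlapped between genotypes. Psme3 was at 0.11 without control pool 2, and Psmf1 at 0.08 without control pool 2 or βNrf2KO pool 3 and 0.39 without control pool 4. Psme4, the large activator known as PA200, differed by 0.04 ± 0.15.

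The role groups were also compared with the core within each pool. Within a pool, the mean log2 CPM of the 17 cap genes lay 0.63 ± 0.13 (SD, n = 3) above that of the 14 constitutive core genes in controls and 0.56 ± 0.05 (SD, n = 4) in βNrf2KO. The assembly chaperones lay -1.99 ± 0.17 and -2.02 ± 0.10 from the core. The immunoproteasome group lay -2.21 ± 0.39 and -2.33 ± 0.32 from it. All these differences overlapped between genotypes, and none was tested. The change in distance (βNrf2KO minus control) was -0.07 for the cap (-0.13 with control pool 4 left out and -0.0027 with control pool 2 left out). It was -0.11 for the immunoproteasome group (-0.32 with control pool 4 left out and 0.06 with control pool 1 left out). Inside that group the inducible catalytic subunits were at 0.15 and the PA28 subunits Psme1 and Psme2 at -0.16. Psme2b has equal weight in the group mean, at 6 to 16 counts per pool and a log2 fold change of -0.67. The negative sign of this mean rests on Psme2b, whose counts are uncertain. The core mean itself was 4.25, 3.93 and 4.46 log2 CPM in controls against 4.44, 4.34, 4.51 and 4.34 in βNrf2KO. Control pool 2 was the lowest of 7 pools for 13 of the 14 core genes and 11 of the 17 cap genes. In 7 members the order was different, with control pool 2 above both other controls: Psma7, Psmc3, Psmd3, Psmd4, Psme2b, Psmg1 and Psmg4.

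Levels per kilobase of exon differed among subunits that are present in equal numbers in the particle. In control pools the α ring ran from 2.61 ± 0.67 CPM per kilobase (SD, n = 3) for Psma4 to 25.6 ± 5.00 for Psma2. The β ring ran from 4.40 ± 1.46 for Psmb5 to 32.5 ± 5.96 for Psmb2, and the base ATPases from 5.59 ± 1.2 for Psmc3 to 22.0 ± 4.01 for Psmc1. The lid ran from 3.72 ± 0.89 (Psmd14) to 17.0 ± 2.9 (Psmd6). Psmb8 (0.771 ± 0.21) and Psmb9 (0.388 ± 0.18) were below all of these ranges, while Psmb10 (3.69 ± 1.19) lay above Psma4 and near Psmd14. Psme3 (26.2 ± 3.18) and Psme4 (21.0 ± 2.04) were among the highest members. This scale rests on the exon length in the files. That length was 2370 bases for Psma4, against 1165 in its longest coding transcript in GENCODE M21, and 944 bases for Psma2, against 2911, so the order of these levels is uncertain.

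Near-identical copies also bear on these levels. For 8 members, other annotated genes matched the longest coding transcript over 100 bases or more at an identity of 97% or more. The match covered 88.4% of Psmb5, 82.5% of Psme2, 80.7% of Psmb3, 76.5% of Psma5 and 52.7% of Psmd11. The copies of Psmb5 held 14 counts over the 7 pools and Psmb5 held 632, while those of Psmd11 held 2139 against 10100. The labels used here do not say how reads with several matches were counted, so the levels of these members are uncertain, and the part of the copies in them was not tested.

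**Figure D4:**
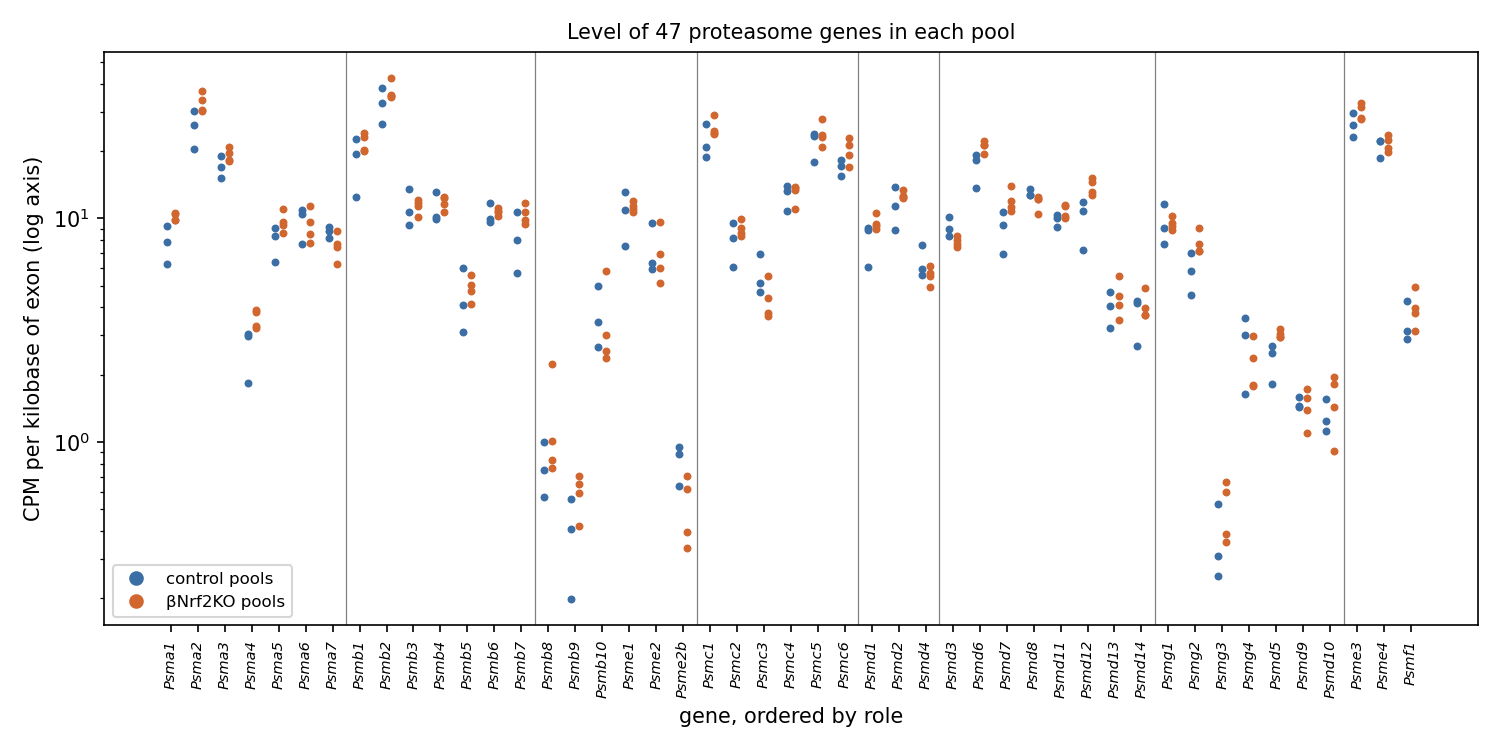
CPM per kilobase of exon (vertical log axis) of the 47 tested proteasome genes (horizontal axis, in order of role) in each of the 3 control and 4 βNrf2KO pools (points). Psmb2, Psma2 and Psme3 are near the top in both genotypes, and Psmb8, Psmb9, Psme2b and Psmg3 are the lowest.

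Genes that act with the proteasome but fall outside the symbol rule were read from separate lists. Of 11 proteasome-associated genes 7 were above 0 and 4 below (median 0.10). Ube3c, a ubiquitin ligase bound to the proteasome, was read at 6.41, 6.10 and 6.44 log2 CPM in controls and at 6.72, 6.56, 6.93 and 6.94 in βNrf2KO, without overlap (0.47 ± 0.16, edgeR adjusted p = 0.571). The deubiquitinase Usp14 (0.27 ± 0.18) and the proteasome adaptor Ecpas (0.23 ± 0.15) overlapped between genotypes, and Usp14 was at 0.15 without βNrf2KO pool 1. Of 15 genes of ubiquitin supply and shuttling 9 were above 0 and 6 below (median 0.02).

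The polyubiquitin gene Ubb had 7.92, 7.72 and 8.27 log2 CPM in controls against 7.77, 7.66, 7.40 and 7.18 in βNrf2KO (-0.47 ± 0.19, edgeR adjusted p = 0.571). The groups overlapped, since βNrf2KO pool 1 lay above control pool 2, and the difference was -0.30 without control pool 4.

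Of 8 regulators of proteasome genes 4 were above 0 and 4 below (median 0.02). Nfe2l1, which raises proteasome transcription when degradation is impaired, was read at 7.27, 6.91 and 7.36 log2 CPM in controls and at 7.32, 7.28, 7.46 and 7.33 in βNrf2KO (0.15 ± 0.16, edgeR adjusted p = 0.734). Control pool 2 was again the lowest, and the difference was 0.03 without it. Maff, a small Maf partner of Nrf2 and Nfe2l1, was at 6.51, 6.76 and 6.28 against 6.10, 6.01, 5.65 and 5.44, without overlap (-0.70 ± 0.20, edgeR adjusted p = 0.571). The related Mafk (-0.38 ± 0.20) and Mafg (-0.29 ± 0.20) overlapped between genotypes. Mafk was at -0.21 without control pool 2, and Mafg at -0.18 without control pool 1 and -0.48 without control pool 4.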

How the data were processed

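Gene-level values in the deposited files are raw counts. The tools listed in the submitters' processing notes are bcl2fastq 2.20, Trimmomatic 0.36, featureCounts (Subread 1.5.2) and STAR 2.5.2b; how the authors set them is not stated there. Those notes name GRCm39, but 91.4% of 49056 gene IDs shared with GENCODE M21 have its GRCm38 start and end, so GRCm38 is used. The deposited exon lengths (bases) were used to scale counts per kilobase. Library sizes and tests exclude Cre. Symbols matched 48970 IDs.

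Counts were tested with edgeR 4.0.16 (R 4.3.3): TMM, filterByExpr by group, robust quasi-likelihood fit, two-sided, Benjamini-Hochberg adjustment over 19893 genes, threshold 0.05. Log2 fold changes are βNrf2KO minus control, SE is the fold change divided by the root of the F statistic, and log2 CPM (counts scaled to library size) uses a prior count of 2. DESeq2 1.42.0, limma 3.58.1, other scalings and filters, the pool number as a block, and leaving out each pool were alternatives. The fit was checked on simulated counts. A count of 0 allows up to 3 counts (0.118 to 0.165 CPM by library size alone, without the TMM factor), counting error only.

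Same-numbered pools deviated together across genes (r = 0.376, 0.229 and 0.323 for numbers 1, 2 and 4). On the data alone, the numbers were taken to pair pools, but only in the block alternative and the ratios within a number. The main edgeR fit and the permutation test did not use the pairing. The pairing is weak: control pool 4 and βNrf2KO pool 3 reached r = 0.241, and over the members alone number 2 was at -0.066 and control pool 4 with βNrf2KO pool 2 at 0.388. βNrf2KO pool 3 has no partner.

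The members and lists were chosen with earlier results of these data known. By rule, values in every pool are given for the 6 catalytic subunits, the 2 members with the smallest p per role, members without overlap, up to 3 genes per pathway list, Nfe2l1 and Nfe2l2. Tap1 and members given only as fold changes fall outside it. Some genes that the rule names are not reported here.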

Additional observations from a re-analysis of the deposited data

Results flagged for a closer look

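In the 4 βNrf2KO pools, a pool whose gap to its nearest neighbour took more of the group's range than Dixon's critical value was marked, and 5 of 51 values checked had one, where chance gives about 1 in 20. The log2 ratio of Psmb10 to Psmb7 was -0.70 in βNrf2KO pool 1, far above the other 3 βNrf2KO pools and near control pools 1 and 2. Psmb2 (5.68 log2 CPM) and Psmc1 (5.45 log2 CPM) were each far above the other 3 βNrf2KO pools in βNrf2KO pool 3. Control pool 4 lay nearer to these values, at 5.53 and 5.33. Psmc4 was far below the other 3 βNrf2KO pools in βNrf2KO pool 4 (4.57 log2 CPM), but control pool 4 was lower still (4.55). Psmd8 was far below the other 3 βNrf2KO pools in βNrf2KO pool 1 (5.00 log2 CPM).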

How the results depend on the processing

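No proteasome gene passed the adjusted threshold under any alternative run. Over all genes the number past it was 0, but 14 with the pool number as a replicate block and 1 by DESeq2, and 0 to 1 when each pool was left out. The number past unadjusted p of 0.05 over all genes was 1683, 2620 without a filter, and 474 (without control pool 2) to 3446 (without control pool 4). For members it was 2, and 1 without a filter, with limma-voom or with the block, and 0 to 8 when each pool was left out. The shares of all tested genes in those alternatives were 7.72%, 6.22%, 12.1% and 2.30% to 17.0%. Apart from these counts the block, which pairs pools 1, 2 and 4, changed no call; it moved the median of the assembly chaperones from 0.22 to 0.062. Of 328 member values under alternatives that keep all pools, 3 changed sign: Psmb3 with limma-voom (-0.017) and Psmg1 with RLE (-0.00093) or a filter of 1 CPM in 3 pools (-0.0044). Leaving out a pool turned 27 of 329 member values, in 13 of 47 members, 6 of them without control pool 2. Ranges over left-out pools for genes that turned were -0.20 to 0.042 (Psma6), -0.11 to 0.18 (Psmb3), -0.064 to 0.43 (Psmb5), -0.027 to 0.12 (Psmb6), -0.49 to 0.18 (Psmb10), -0.071 to 0.11 (Psmc4), -0.14 to 0.052 (Psmd9), -0.0012 to 0.27 (Psmd13), -0.065 to 0.24 (Psmd14), -0.090 to 0.28 (Psme1), -0.28 to 0.18 (Psme2), -0.041 to 0.081 (Psme4), -0.12 to 0.17 (Psmg1), -0.10 to 0.45 (Nfe2l2), -0.015 to 0.28 (Keap1) and -0.10 to 0.58 (log2 ratio of Psmb8 to Psmb5). Medians by role ranged from 0.088 to 0.35 (assembly), 0.043 to 0.23 (base ATPases), 0.0090 to 0.33 (other base) and 0.078 to 0.25 (lid). The causes were not tested. Psmb8, Psmb9, Psme2b, Psmg3, Psmg4 and, outside the members, Isg15 are limited by depth.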

Other observations

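The 2 core genes known from other tissues were near the limit of detection and were not tested. Psma8, an α subunit of testis, had 9, 5 and 4 counts in controls against 0, 5, 3 and 3 in βNrf2KO. Psmb11, the catalytic subunit of the thymus, had 4, 8 and 3 counts in controls and 3, 0, 2 and 3 in βNrf2KO. The 4 pseudogenes that carry a proteasome symbol held 0 to 3 counts in any pool.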
